A study of Mus musculus with 5 samples.

Results

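The integrated stress response genes described here are Atf4, Atf3, Ddit3, Trib3, Asns, Chac1, Sesn2, Phgdh, Psph and Slc7a11. They were chosen by symbol, and these 10 genes were found on 11 of the 55357 gene rows of the deposited matrices. Ddit3 is listed under 2 overlapping identifiers, of which ENSMUSG00000025408 holds 37476 UMIs (unique molecular identifiers, each counting 1 captured transcript) and ENSMUSG00000116429 holds 0. The study measured tibialis anterior, a fast hind-limb muscle, of female C57BL/6 mice with droplet sequencing (10x Genomics Chromium 3′ chemistry, version 4). The 2 frail libraries came from mice aged 26 months with a frailty index, a score of accumulated deficits, of at least 0.18. The 3 control libraries came from mice of the same age, strain and sex with an index under 0.18. All groups are aged, no animal was treated, and the frailty score is the only stated difference. The labels describe a digested suspension of whole cells in one place and sorted nuclei in another, so that the units are called barcodes here.

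In the integrated stress response, kinases that sense amino acid shortage, misfolded protein in the endoplasmic reticulum, double-stranded RNA or haem shortage phosphorylate the translation factor eIF2alpha. Bulk translation falls while Atf4 messenger RNA, which carries upstream reading frames, is translated more. The ATF4 protein then raises transcription of genes for amino acid synthesis and transport, of further bZIP factors (Atf3, Ddit3) and of feedback inhibitors such as Trib3. Because much of this control acts on translation, the Atf4 transcript level is no measure of ATF4 protein.

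ATF4 binds DNA with a C/EBP partner at the C/EBP-ATF response element, whose core is TGATGNAA (TTNCATCA on the other strand). Promoters of all 10 genes, 300 bases from 250 before to 50 after each annotated start, were found in RefSeq (GRCm38.p6). The core was present on either strand in 5 of the 10, and in 3.969% of 32851 promoters of the same length. The stricter form TGATGCAA, which is one case of the first, was present in 3 of the 10 and in 0.895% of promoters. The stretches around the matches are shown because they are where the letters of the element occur in genes that behaved differently below. Each reads 5′ to 3′ on the gene's own strand, with the match in capitals.
Atf3 (minus strand, chr1:191183410-191183469): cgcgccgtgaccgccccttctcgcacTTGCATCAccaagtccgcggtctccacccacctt
Trib3 (minus strand, chr2:152344028-152344057): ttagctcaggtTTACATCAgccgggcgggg
Asns (minus strand, chr6:7693210-7693258): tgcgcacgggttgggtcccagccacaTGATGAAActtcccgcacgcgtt
Chac1 (plus strand, chr2:119351023-119351082): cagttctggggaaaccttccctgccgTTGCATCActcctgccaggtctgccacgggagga
Slc7a11 (minus strand, chr3:50443637-50443696): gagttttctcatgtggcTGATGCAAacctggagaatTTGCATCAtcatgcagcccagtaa
With the annotated start counted as 0, the first base of the match stands at -110 in Atf3, 14 in Trib3, -23 in Asns and -193 in Chac1. Slc7a11 holds the element on both strands, at -66 and -47. The windows of Atf4, Ddit3, Sesn2, Phgdh and Psph lack these letters, which says nothing about binding outside them.

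A barcode was retained if it held 200 or more genes and its mitochondrial UMIs made up 10% or less, which left 50460 of 56922 barcodes. They held 67624637 and 67510604 UMIs in frail 1 and 2, and 66301294 to 88089633 UMIs in the controls. The mitochondrial limit removed 17.2% and 9.70% of barcodes in the frail libraries, against 7.49% to 11.2% in the controls. Any 2 libraries shared at most 0.456% of the barcodes of the smaller one. Lineages were gated by 1 gene each. A barcode entered a gate with at least 2 UMIs of Cdh5 (endothelium), Pdgfra (fibro-adipogenic cells), Rgs5 (mural cells), C1qa (macrophages) or Pax7 (satellite cells), and more of it than of the 4 other gate genes together. The gates held 12306, 13260, 7341, 2434 and 604 barcodes in that order. Each gate was highest for the markers of its name, but the Rgs5 gate also held endothelial transcripts. There, 6 endothelial markers summed to 2561 and 3660 CPM (counts scaled to a library total of 1000000) in frail libraries and to 2312 to 3818 CPM in controls, beside 6 mural markers at 6978 and 5743 CPM in frail libraries and 4404 to 7136 CPM in controls. Most barcodes of this gate held 2 or more endothelial UMIs in every library. Those with fewer numbered 455 of 1345 and 457 of 1239 in frail 1 and 2. In control 1, 2 and 3 they numbered 478 of 1395, 486 of 1832 and 616 of 1530. For this reason it is called the Rgs5 gate below. Satellite-cell values rest on few UMIs: control 1 and 2 hold 50 and 45 barcodes of the Pax7 gate. Myofibre transcripts summed to 108 to 720 CPM in the frail libraries and to 3178 to 12870 CPM in the controls, and keratin transcripts reached 1288 CPM in control 3 but under 0.1 CPM in both frail libraries. Whether either moved a result below was not tested.

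None of the 10 genes differed between frail and control muscle past the test. Over all retained barcodes Atf4, the central transcription factor, stood at 281 and 291 CPM in frail 1 and 2, against 330, 338 and 327 CPM in control 1, 2 and 3. Both frail libraries lay under every control, with means of 286 ± 6.82 CPM in frail (SD, n = 2) and 331 ± 5.61 CPM in control libraries (SD, n = 3). The fitted log2 difference, frail over control, was -0.23 ± 0.16 (SE; 95% interval -0.62 to 0.15), with an adjusted p of 0.937 by edgeR's quasi-likelihood test over 19989 genes. Cytosolic ribosomal protein transcripts, summed, were also lower, at 104400 to 107100 CPM in frail libraries and 117800 to 126400 CPM in controls; their part in the Atf4 value was not tested. In sums over barcodes, fewer cells of a type and less RNA per cell cannot be told apart.

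The 2 bZIP factors downstream of ATF4 overlapped between the groups. Atf3, which is also an immediate early gene, stood at 1600 and 985 CPM in frail 1 and 2, against 1286, 1354 and 1677 CPM in control 1, 2 and 3. Frail 2 was lowest, frail 1 lay among the controls, and the log2 difference was -0.16 ± 0.27 (SE). It was 0.19 without frail 2. Ddit3, which encodes the pro-apoptotic factor CHOP, stood at 101 and 87.5 CPM in frail libraries and 97.4, 102 and 114 CPM in control libraries. Its log2 difference was -0.17 ± 0.16 (SE).

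Among the targets that limit or tune the response, Chac1 showed the smallest p of the 10. This gene, whose enzyme degrades glutathione, held 1.24 and 1.39 CPM in frail 1 and 2, against 1.99, 3.53 and 2.08 CPM in control 1, 2 and 3. The groups did not overlap, and control 2 was highest. The log2 difference was -0.97 ± 0.38 (SE; 95% interval -1.87 to -0.07), with an unadjusted p of 0.0384 and an adjusted p of 0.874 by edgeR. Sesn2, an inhibitor of mTORC1 under leucine shortage, stood at 6.14 and 5.69 CPM in frail libraries, against 6.44, 6.22 and 10.7 CPM in control libraries. The groups again did not overlap, but control 3 alone stood apart and the difference was -0.40 ± 0.28 (SE, log2). Trib3, a pseudokinase that holds ATF4 and CHOP activity down, stood at 6.54 and 11.3 CPM in frail libraries and 6.44, 7.44 and 6.45 CPM in control libraries. Frail 2 was high and the 4 other libraries were close together. The log2 difference of 0.36 ± 0.26 (SE) was -0.03 without frail 2.

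The amino acid genes gave no common direction. Asns, asparagine synthetase, stood at 14.31 and 10.98 CPM in frail 1 and 2, against 16.1, 17.3 and 12.5 CPM in control 1, 2 and 3. The groups overlapped, with a log2 difference of -0.29 ± 0.24 (SE). Phgdh, the entry enzyme of serine synthesis, stood at 16.7 and 13.3 CPM in frail libraries and at 10.4, 10.3 and 23.5 CPM in control libraries. Control 3 was highest. It also held the largest share of barcodes in the Pdgfra gate, 32.4% against 22.2% to 25.9% in the other libraries. The same held for barcodes in no gate, 35.3% against 20.2% to 32.6%. The part of either share in the Phgdh values was not tested. The log2 difference of 0.03 ± 0.38 (SE) turned negative without frail 1, control 1 or control 2. Psph, the last enzyme of serine synthesis, stood at 8.90 and 8.87 CPM in frail libraries, within the range of 9.49, 7.96 and 12.7 CPM in control libraries. Slc7a11, the cystine-glutamate exchanger, stood at 3.77 and 1.08 CPM in frail libraries, against 2.75, 1.90 and 1.58 CPM in control libraries. Its log2 difference of 0.23 ± 0.57 (SE) was -1.01 without frail 1.

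**Figure D1:**
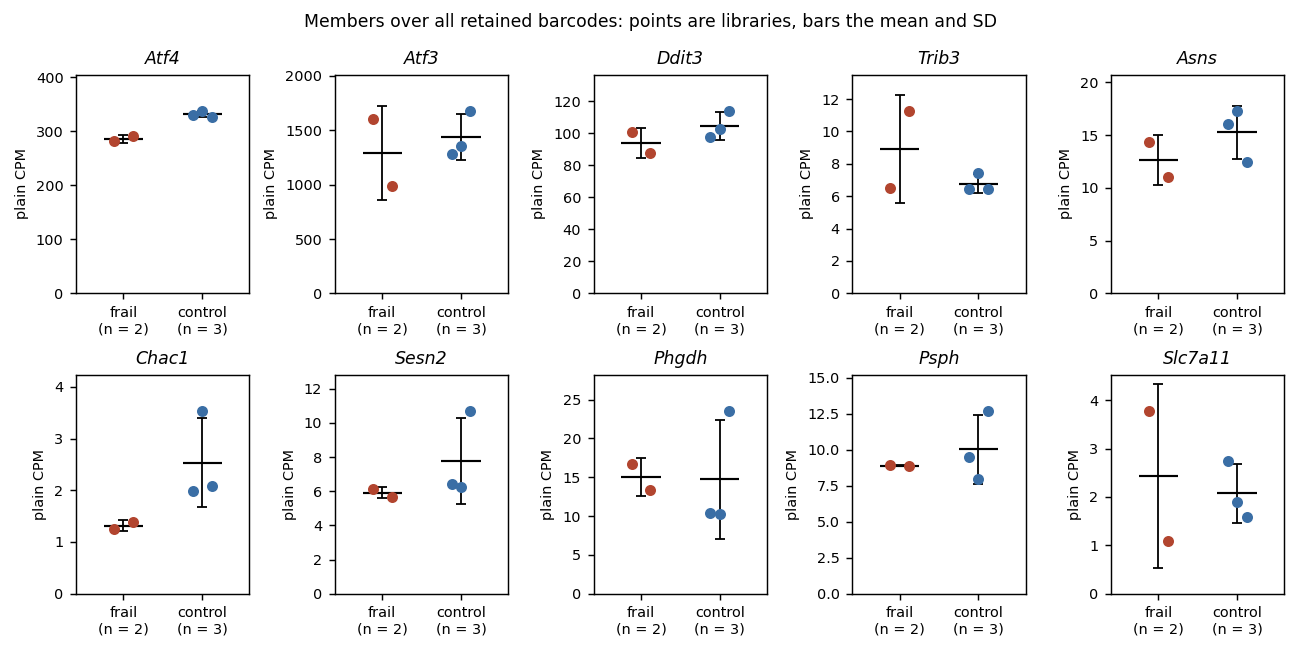
Each panel plots 1 gene in CPM (UMIs scaled to a library total of 1000000) for the 2 frail libraries on the left and the 3 control libraries on the right, with a line at the mean and bars of 1 SD. Atf4, Chac1 and Sesn2 are the genes whose frail libraries both lie under every control library.

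In sum over the 10 genes, 0 passed an adjusted p of 0.05 in edgeR, 1 had an unadjusted p under 0.05, and DESeq2 called 0. The background in this comparison was 0% of genes called by edgeR. By DESeq2 it was 319 genes. Both frail libraries lay under every control for 3 of the 10, which held for 9.94% of all tested genes, and above every control for 0 of the 10, which held for 9.81%. An unadjusted p under 0.05 occurred in 5.6% of genes. In 7 of the 10 the fitted difference was negative, with a median log2 difference of -0.18, beside 0.00 over all genes.

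Within the gates the Atf4 transcript was again lower in both frail libraries in endothelium, fibro-adipogenic cells and the Rgs5 gate, without passing the test. In the Cdh5 gate it stood at 286 and 289 CPM in frail 1 and 2, against 374, 376 and 347 CPM in control 1, 2 and 3. The log2 difference there was -0.36 ± 0.20 (SE). In the same gate the frail libraries held 73.2 and 87.2 CPM of Ddit3, against 102, 98.8 and 106 CPM in the controls. Its log2 difference was -0.36 ± 0.16 (SE), with an adjusted p of 1.00 by edgeR. In the Pdgfra gate Atf4 stood at 307 and 302 CPM in frail libraries, against 347, 346 and 342 CPM in control libraries.

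In the Pdgfra gate the 2 genes with the smallest p were Chac1 and Trib3. Chac1 held 5 and 3 UMIs in frail 1 and 2, and 7, 11 and 20 UMIs in control 1, 2 and 3, which is 0.241 and 0.132 CPM in frail libraries, against 0.357, 0.584 and 0.571 CPM in controls. The log2 difference was -1.44 ± 0.63 (SE; unadjusted p 0.0486, adjusted p 0.918 by edgeR). Of the barcodes holding Chac1 there, doublet calls took 0 of 5 and 0 of 2 in frail 1 and 2. In control 1, 2 and 3 they took 2 of 7, 4 of 11 and 3 of 15. The part of doublets in this difference was not tested. Trib3 stood at 8.48 and 18.1 CPM in frail libraries and 9.58, 7.91 and 6.67 CPM in control libraries. Frail 2 alone was above the controls. The log2 difference of 0.69 ± 0.31 (SE) was 0.09 without frail 2.

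In the Cdh5 gate 9 of the 10 fitted differences were negative, with a median log2 difference of -0.24. The Rgs5 gate was the one in which all 10 were negative, with a median of -0.38, beside -0.005 over all genes tested there. Both frail libraries lay under every control for 4 of the 10, and for 8.33% of all tested genes. Atf3 stood at 1251 and 894 CPM in frail 1 and 2, against 1660, 1705 and 1541 CPM in control 1, 2 and 3. The log2 difference was -0.64 ± 0.25 (SE; unadjusted p 0.0338, adjusted p 1.00 by edgeR). Ddit3 stood at 111 and 113 CPM in frail libraries and 137, 146 and 141 CPM in control libraries, a log2 difference of -0.37 ± 0.17 (SE). With the looser gate of 1 UMI the differences were -0.08 for Ddit3 and -0.36 for Atf3, and without barcodes holding at least 2 endothelial UMIs that of Ddit3 was -0.21. Of 16 other immediate early genes there, none was called by edgeR (5 had an unadjusted p under 0.05, and DESeq2 called Egr1). A negative difference was fitted for 15 of them, with a median of -0.38, and their sum was 18520 and 22820 CPM in frail and 23230 to 29160 CPM in control libraries. The sum of ribosomal protein transcripts was 78750 to 84110 CPM in the frail libraries of this gate, against 95920 to 100100 CPM in the controls. The part of either in the members' values was not tested.

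In macrophages 5 of the 9 tested members had a positive difference and 4 a negative one. In the C1qa gate Ddit3 stood at 121 and 124 CPM in frail 1 and 2, against 77.2, 90.0 and 116 CPM in control 1, 2 and 3. Both frail libraries were above every control, which held for 8.65% of all tested genes, and the log2 difference was 0.37 ± 0.20 (SE). The 6 endothelial markers in this gate summed to 427 and 628 CPM in frail 1 and 2, against 221, 252 and 288 CPM in control 1, 2 and 3, and all 6 had positive differences with a median of 1.13 (log2). Their part in the members' values was not tested. Macrophage Sesn2 stood at 5.69 and 8.01 CPM in frail libraries, against 8.35, 7.36 and 14.1 CPM in controls, with a log2 difference of -0.52 ± 0.35 (SE). In the Pax7 gate only 4 of the 10 genes had enough UMIs to be tested, with Atf4 at 297 and 315 CPM in frail libraries, against 283, 255 and 313 CPM in controls. The log2 difference was 0.08 ± 0.21 (SE) for Atf4, -0.05 ± 0.23 for Atf3, -0.07 ± 0.32 for Ddit3 and -0.04 ± 0.63 for Phgdh. The signs for Atf4 and Atf3 turned when a library was left out.

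**Figure D2:**
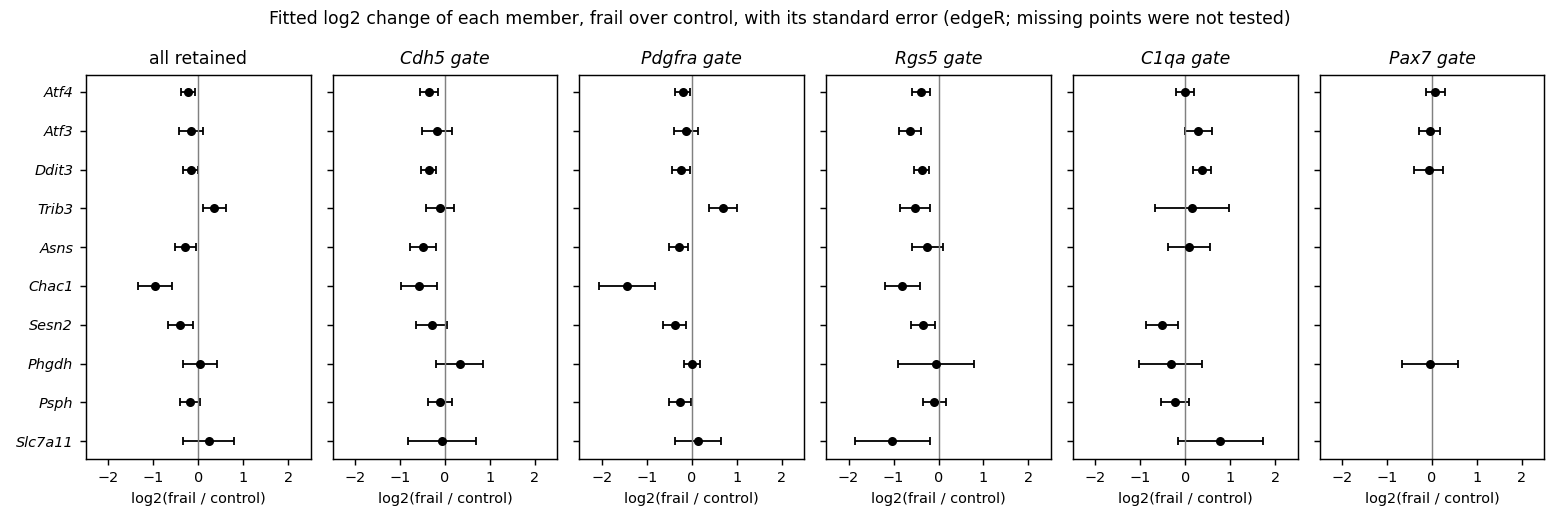
Fitted log2 ratio of frail over control for each gene over all retained barcodes and in each gate, with 1 SE on either side, and genes under the low-count filter left out. In the Rgs5 gate all 10 points lie under 0, and in the C1qa gate 5 of 9 lie above it.

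In barcodes that entered no gate, Asns averaged 8.04 ± 1.97 CPM in frail libraries (SD, n = 2) and 10.9 ± 1.53 CPM in control libraries (SD, n = 3), and Chac1 averaged 1.18 ± 0.63 CPM in frail and 4.02 ± 1.59 CPM in control libraries. Both frail libraries lay under every control for these 2 of the 10 genes, which held for 8.86% of the 19989 genes tested over all barcodes, and neither difference was tested.

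No gate held a member past the threshold. By edgeR the share of all tested genes called was 0.125% in the Cdh5 gate, 0.0623% in the Pdgfra gate, 0% in the Rgs5 and C1qa gates, and 0.0572% in the Pax7 gate. Members with an unadjusted p under 0.05 numbered 0 in the Cdh5 gate (3.96% of all genes), 1 in the Pdgfra gate (5.34%), 1 in the Rgs5 gate (4.09%), 0 in the C1qa gate (4.78%) and 0 in the Pax7 gate (3.89%), and DESeq2 called 0 in each. Both frail libraries lay under every control for 2, 3, 4, 0 and 0 of the 10 members in the same order of gates, beside 7.41%, 9.14%, 8.33%, 8.97% and 7.93% of all genes. They lay above every control for 0, 0, 0, 1 and 1 members, beside 7.53%, 9.54%, 9.94%, 8.65% and 10.2% of all genes. Whether the frail difference itself varied among the gates was tested by the 4 gate-by-group terms together. Atf3 (unadjusted p 0.0571), Ddit3 (0.0734) and Atf4 (0.0790) came nearest, and the adjusted p by edgeR was 1 for all 10 genes; 0 of 16053 genes passed, with 730 at an unadjusted p under 0.05 and 32 called by DESeq2. With no low-count filter Atf3 was called (adjusted p 0.00149 by edgeR), as 1 of 573 genes called under that setting.

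Between lineages, 7 of the 10 genes were called in at least 1 gate, beside 92.4% of all 16053 genes, so that this count is not a result about the members. Each gate was compared with the mean of the 4 others over 25 sums (5 libraries by 5 gates), with the library as a block. Of the 10 members 3 were higher and 2 lower in the Cdh5 gate, where 59.7% of 16053 genes were called (29.4% higher, 30.3% lower). In the Pdgfra gate 3 were higher and 3 lower, beside 59.6% of genes (31.3% higher, 28.3% lower). In the Rgs5 gate 2 were higher and 0 lower, beside 46.2% (25.3% higher, 20.8% lower). In the C1qa gate 3 were higher and 3 lower, beside 60.6% (29.3% higher, 31.3% lower), and in the Pax7 gate 1 was higher and 2 lower, beside 48.8% (21.1% higher, 27.7% lower). The members' counts are not above this background. Atf4, Ddit3 and Psph were called in no gate.

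Asns was highest in the vascular gates. It averaged 21.6 ± 5.72 CPM in the Cdh5 gate, 18.4 ± 4.99 CPM in the Rgs5 gate, 13.6 ± 2.30 CPM in the Pdgfra gate, 3.24 ± 0.85 CPM in macrophages and 2.03 ± 3.69 CPM in satellite cells (SD, n = 5 libraries). The first 2 overlapped, with the Cdh5 gate higher in 4 of 5 libraries, and the 3 leading gates stood above macrophages in every library. Against the 4 others, the log2 difference was 1.88 ± 0.17 (SE) in the Cdh5 gate, 1.49 ± 0.18 in the Rgs5 gate, 1.12 ± 0.18 in the Pdgfra gate, -1.42 ± 0.33 in the C1qa gate and -3.08 ± 0.50 in the Pax7 gate. The adjusted p by edgeR lay between 6.44e-10 and 0.000608. In satellite cells Asns amounted to 0 and 1 UMI in the frail libraries and 3, 0 and 1 UMIs in the controls, and the macrophage difference was -0.61 (adjusted p 0.192) with a looser gate of 1 UMI.

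Trib3 followed a similar order. It averaged 10.2 ± 4.58 CPM in the Pdgfra gate, 10.1 ± 2.52 CPM in the Cdh5 gate, 6.23 ± 1.80 CPM in the Rgs5 gate, 1.56 ± 1.07 CPM in macrophages and 0.89 ± 1.16 CPM in satellite cells (SD, n = 5). The Pdgfra and Cdh5 gates did not differ beyond their spread. Their log2 differences against the 4 others were 1.61 ± 0.24 and 1.59 ± 0.24 (SE, adjusted p of 3.72e-06 and 5.61e-06 by edgeR), beside -1.63 ± 0.44 in macrophages. The satellite-cell difference of -2.20 ± 0.68 rests on 1 and 3 UMIs in the frail libraries, against 0, 0 and 1 in the controls, and did not pass without control 3 (adjusted p 0.0544), with a gate of at least 3 UMIs (0.0521) or with the gate of 1 UMI (-1.38, adjusted p 0.105).

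Chac1 divided the lineages differently. It averaged 3.64 ± 1.41 CPM in the Cdh5 gate, 2.79 ± 0.87 CPM in the Rgs5 gate and 0.38 ± 0.20 CPM in the Pdgfra gate (SD, n = 5). Macrophages averaged 1.22 ± 1.58 CPM and satellite cells 0.98 ± 1.4 CPM, and the lowest library stood at 0 CPM in both. Endothelium was higher than the 4 other gates by a log2 difference of 1.90 ± 0.33 (SE, adjusted p 2.59e-05 by edgeR) and the Pdgfra gate lower by -2.16 ± 0.54 (adjusted p 0.00149). In the Rgs5 gate the difference of 1.31 ± 0.36 became 0.26 (adjusted p 0.759) once barcodes with at least 2 endothelial UMIs were left out, an alternative added after seeing the endothelial markers there. Asns in that gate kept its call under every alternative run, with log2 differences from 1.24 to 1.75.

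The serine genes parted from each other. Phgdh averaged 22.1 ± 3.05 CPM in the Pdgfra gate, against 3.89 ± 2.01 to 7.69 ± 5.28 CPM in the other gates (SD, n = 5). Among the 5 gates it was highest there in every library. Barcodes in no gate averaged as much Phgdh, 22.4 ± 8.15 CPM, and ranged from 13.05 to 33.01 CPM. In the Pdgfra gate the log2 difference against the 4 other gates was 2.24 ± 0.19 (SE, adjusted p 8.99e-10 by edgeR), and 1.45 with the looser gate. In fibro-adipogenic cells 15.8% and 13.5% of frail barcodes and 12.5% to 18.7% of control barcodes held a Phgdh UMI, against 2.32% and 1.32% of frail and 0.926% to 3.03% of control barcodes of the Cdh5 gate. The Cdh5 barcodes were shallower, with median totals of 3937 to 4910 UMIs beside 7877 to 9139 UMIs in the Pdgfra gate. After thinning to 2000 UMIs the shares were 3.22% to 5.01% in the Pdgfra gate and 0.105% to 1.10% in the Cdh5 gate. Psph averaged 6.93 ± 0.79 to 9.54 ± 1.71 CPM across the gates, with neighbours in that order within their spread. In barcodes of no gate it averaged 11.65 ± 2.71 CPM. In control 3, a single barcode of the Pdgfra gate held 41 Psph UMIs, a feature picked out after its value was seen.

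Among the 5 gates Slc7a11 was highest in macrophages, at 9.87 and 2.29 CPM in frail 1 and 2 and 6.62, 2.52 and 0.864 CPM in control 1, 2 and 3. The 4 other gates averaged 0.57 ± 1.28 to 0.92 ± 0.54 CPM (SD, n = 5). The log2 difference was 2.76 ± 0.45 (SE, adjusted p 1.13e-05 by edgeR), and macrophages were above the next gate in 4 of 5 libraries, not in control 3. Barcodes in no gate held 9.88 and 3.41 CPM in frail 1 and 2 and 6.23, 4.70 and 3.14 CPM in control 1, 2 and 3, above the macrophages on average. In macrophages frail 1 was highest and control 3 lowest, and the groups overlapped.

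The factors differed less. Atf3 averaged 2191 ± 203 CPM in satellite cells, 2019 ± 539 CPM in macrophages, 1410 ± 339 CPM in the Rgs5 gate, 1222 ± 239 CPM in the Pdgfra gate and 1137 ± 280 CPM in the Cdh5 gate (SD, n = 5). Its log2 difference was 0.73 ± 0.13 in satellite cells, 0.59 ± 0.13 in macrophages, -0.43 ± 0.14 in the Pdgfra gate and -0.59 ± 0.14 in the Cdh5 gate (SE, adjusted p of 8.22e-05, 0.000506, 0.0119 and 0.00101 by edgeR). The call in the Pdgfra gate was lost with no low-count filter (adjusted p 0.088). Sesn2 was higher in macrophages (0.36 ± 0.14, adjusted p 0.0278) and lower in the Pdgfra gate (-0.61 ± 0.12, adjusted p 0.00016). Its macrophage call was lost under 5 of 12 alternatives, namely without control 1 (adjusted p 0.08595) or control 3 (0.112), with no low-count filter (0.155), without endothelial UMIs in the Rgs5 gate (0.0658) and with the gate of 1 UMI (difference 0.18, adjusted p 0.368). Atf4 spanned only 290 ± 39.0 CPM in macrophages to 348 ± 53.9 CPM in the Rgs5 gate, and its log2 differences lay between -0.07 and 0.06. Ddit3 spanned 92.7 ± 15.6 CPM in the Pdgfra gate to 129 ± 16.5 CPM in the Rgs5 gate, where its log2 difference was 0.28 ± 0.12 with an adjusted p of 0.0577.

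**Figure D3:**
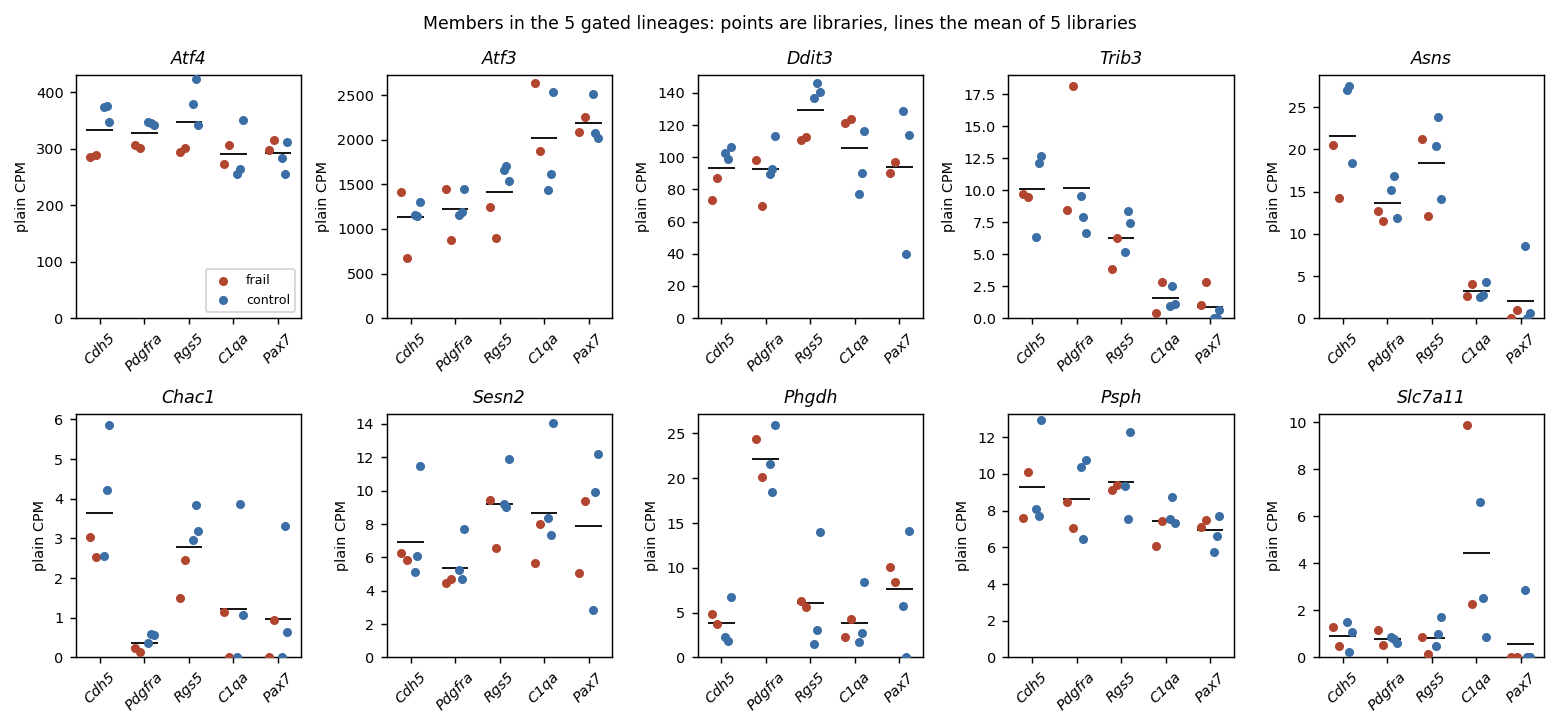
Each panel plots 1 gene in CPM in the 5 gates, with frail libraries in red left of control libraries in blue and a line at the mean of 5 libraries. The gate means of Atf4 and Ddit3 lie close together, though libraries of the Pax7 gate run from 39.7 to 128.8 CPM for Ddit3. Asns and Trib3 drop in the C1qa and Pax7 gates, Phgdh stands out in the Pdgfra gate and Slc7a11 in the C1qa gate.

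As a description over the 25 sums, which share libraries and differ in depth, log2(CPM + 1) of Asns and Trib3 had a Pearson r of 0.775, Atf4 and Asns of 0.583, Atf4 and Ddit3 of 0.554, and Atf3 and Trib3 of -0.772. The genes with a mean of at least 10 CPM most like each member were Hoxd8 (0.963), Dnpep (0.951) and Agfg2 (0.944) for Asns, and Hdac7 (0.919), Il17rd (0.916) and Cped1 (0.912) for Trib3. For Phgdh they were Angpt1 (0.912), Fbln7 (0.908) and Sh3d19 (0.885), for Chac1 Gm11730 (0.819), Dll4 (0.817) and Tlcd3b (0.814), and for Slc7a11 Jdp2 (0.822), Cd300c2 (0.770) and Pts (0.763). For Atf3 they were Homer1 (0.841), Sde2 (0.837) and Lmna (0.821), for Atf4 Eif3b (0.758), Ythdf1 (0.737) and Nomo1 (0.732), and for Ddit3 Yju2 (0.765), Rbm19 (0.764) and Mrpl57 (0.748). Sesn2 was most like Atp1b1 (0.767), Gtpbp1 (0.707) and Sphk2 (0.679), and Psph most like Sdc1 (0.716), 3830406C13Rik (0.701) and Sbf1 (0.691).

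Other genes of the pathway also differed by lineage. In the Pdgfra gate, where Phgdh and Trib3 were higher, 6 of 11 tested genes of serine, glycine, proline and one-carbon synthesis were higher and 2 lower, beside 31.3% and 28.3% of all genes. They included the proline synthesis genes Pycr1 (log2 difference 3.08 ± 0.27, SE) and Aldh18a1 (2.09 ± 0.15) and the mitochondrial serine enzyme Shmt2 (0.65 ± 0.11). The bZIP factor Atf5 (2.24 ± 0.10) and the co-regulator Nupr1 (2.12 ± 0.18) were also higher there, as was Slc1a5, a glutamine transporter (2.14 ± 0.06). Of 12 tRNA synthetases 6 were higher and 1, Wars, lower (-0.91 ± 0.13). In the Cdh5 gate, where Asns was highest, 1 of those 11 synthesis genes was higher and 7 were lower, beside 29.4% and 30.3% of all genes. Among the lower was Psat1, the middle enzyme of serine synthesis (-1.09 ± 0.18). Wars was higher there (2.08 ± 0.11) and Cebpb, a partner of ATF4, lower (-2.31 ± 0.14). In macrophages 9 of 14 genes of endoplasmic reticulum folding and the ATF6 and IRE1 arms were higher and 1 lower, beside 29.3% and 31.3% of all genes. Sdf2l1 (2.16 ± 0.15) and Atf6 (0.85 ± 0.07) led them. The alanine aminotransferase Gpt2 was also higher there (4.27 ± 0.14). In satellite cells Ppp1r15a, the stress-induced subunit of the eIF2alpha phosphatase, was higher (0.84 ± 0.11). So were 10 of 16 immediate early genes, beside 21.1% of all genes. All these calls are by edgeR at an adjusted p of 0.05.

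Between frail and control libraries none of these lists held a gene called by edgeR, in all retained barcodes or in any gate. Over all retained barcodes the synthesis list had 8 of 11 differences negative with a median of -0.31, led by Gpt2 (-1.19 ± 0.29, SE; adjusted p 0.570) and Shmt2 (-0.29 ± 0.16). The endoplasmic reticulum list had 12 of 14 negative with a median of -0.12, led by the chaperone Calr (-0.48 ± 0.20) and Sdf2l1 (-0.61 ± 0.31). The kinase and phosphatase list had a median of 0.04, with Nck1 at 0.42 ± 0.17 and Eif2ak4, the amino acid sensor GCN2, at 0.26 ± 0.20. Medians were 0.08 for the bZIP partners (Cebpb 0.27 ± 0.17, Atf5 -0.27 ± 0.20), 0.03 for amino acid transporters (Slc7a1 -0.26 ± 0.18, Slc6a9 -0.36 ± 0.27) and -0.04 for tRNA synthetases (Wars 0.69 ± 0.37, Iars -0.24 ± 0.15). The medians were 0.06 for both the glutathione and the other ATF4 target lists, and -0.07 for the immediate early genes (Nr4a1 -0.37 ± 0.16, Egr1 -0.40 ± 0.22). Genes with an unadjusted p under 0.05 numbered 1 in the synthesis, kinase, endoplasmic reticulum and other-target lists and 0 in the others. DESeq2 called Gpt2 and Gdf15 over all retained barcodes, Cebpb in the Pdgfra gate and Egr1 in the Rgs5 gate.

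Gdf15, a stress-induced cytokine named in the series title and a known target of this response, went the other way from most members. Over all retained barcodes it stood at 28.4 and 21.6 CPM in frail 1 and 2, against 13.2, 13.9 and 16.2 CPM in control 1, 2 and 3, with a log2 difference of 0.78 ± 0.19 (SE; adjusted p 0.537 by edgeR).

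Within a lineage, Ddit3 and Atf4 were higher in every library in barcodes that held Atf3, while Asns, Trib3 and Psph were higher in some libraries and lower in others. Endothelial barcodes with at least 1 Atf3 UMI were set against those with 0 in each library, after thinning every barcode to 2000 UMIs and leaving out shallower ones. Ddit3 stood at 91.9 and 128 CPM in Atf3-positive barcodes of frail 1 and 2 and 63.9 and 58.6 CPM in Atf3-negative ones. In control 1, 2 and 3 it stood at 139, 127 and 165 CPM in positive and 67.6, 47.9 and 65.9 CPM in negative barcodes. The mean log2 ratio was 1.09 ± 0.35 (SD, n = 5), positive in 5 of 5 libraries. For Atf4 it was 0.72 ± 0.13, for Sesn2 1.26 ± 0.71 and for Gdf15 1.43 ± 0.56, each positive in 5 of 5. Asns gave -0.03 ± 0.17, positive in 2 of 5, Trib3 0.14 ± 0.24, positive in 3 of 5, and Psph -0.23 ± 0.57, positive in 1 of 5. Chac1 gave 0.14 ± 0.77, positive in 4 of 5. The exact two-sided sign-flip permutation test over 5 libraries gave its smallest possible p for each ratio positive in 5 of 5, which is above 0.05, and over 40 such relations the adjusted p was 0.227. In both gates such ratios were computed for the members and Gdf15 only. The share of all genes that are higher in every library is therefore not known, and the counts cannot be read as a trait of these members.

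In the Pdgfra gate the ratios for Ddit3 and Atf4 were smaller than in the Cdh5 gate, a difference that was not tested. Ddit3 was higher by 0.54 ± 0.16 and Atf4 by 0.27 ± 0.12 (log2 of Atf3-positive over Atf3-negative barcodes, SD, n = 5), in 5 of 5 libraries each, while Asns gave 0.19 ± 0.42 and Trib3 -0.08 ± 0.30. Sesn2 gave 0.39 ± 0.52 there, positive in 4 of 5, and Gdf15 had a ratio in 4 libraries only. Selecting on Ddit3 instead gave ratios of 0.65 ± 0.11 for Atf3 and 0.37 ± 0.09 for Atf4 in the Cdh5 gate, and 0.28 ± 0.13 and 0.27 ± 0.10 in the Pdgfra gate, again in 5 of 5. Psph was lower in Ddit3-positive barcodes of the Cdh5 gate in 5 of 5 libraries after thinning (-0.56 ± 0.34). Without thinning it gave -0.16 ± 0.24 there, positive in 1 of 5. In the Pdgfra gate it gave 0.09 ± 0.58 after thinning. Selecting on Trib3 gave no such pattern, with -0.03 ± 0.24 for Atf3 and -0.02 ± 0.27 for Ddit3 in the Cdh5 gate.

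Other properties moved with Atf3 detection. Before thinning, Atf3-positive endothelial barcodes had median totals of 4734 to 5946 UMIs, against 3026 to 3540 in negative ones. A list of 16 immediate early genes that does not include Atf3 summed to 19150 to 27550 CPM in positive and 10130 to 15430 CPM in negative barcodes. Median mitochondrial shares were 3.71% to 5.09% in positive and 4.75% to 6.18% in negative barcodes, and doublet calls took 5.39% to 7.58% of positive and 1.09% to 1.57% of negative barcodes. The part of these in the ratios was not tested. Without thinning the ratios in the Cdh5 gate were 0.77 ± 0.19 for Ddit3, 0.66 ± 0.18 for Atf4, 1.25 ± 0.84 for Sesn2 and 2.35 ± 1.11 for Gdf15 (log2, SD, n = 5). Phgdh then gave 1.25 ± 0.51, positive in 5 of 5 libraries. Asns gave -0.33 ± 0.23 and Psph -0.03 ± 0.13, each positive in 1 of 5. After thinning, Phgdh had a ratio in 4 libraries only. With Ddit3 as the selecting gene, Phgdh gave 0.75 ± 0.16 without thinning and 0.03 ± 1.98 with it.

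**Figure D4:**
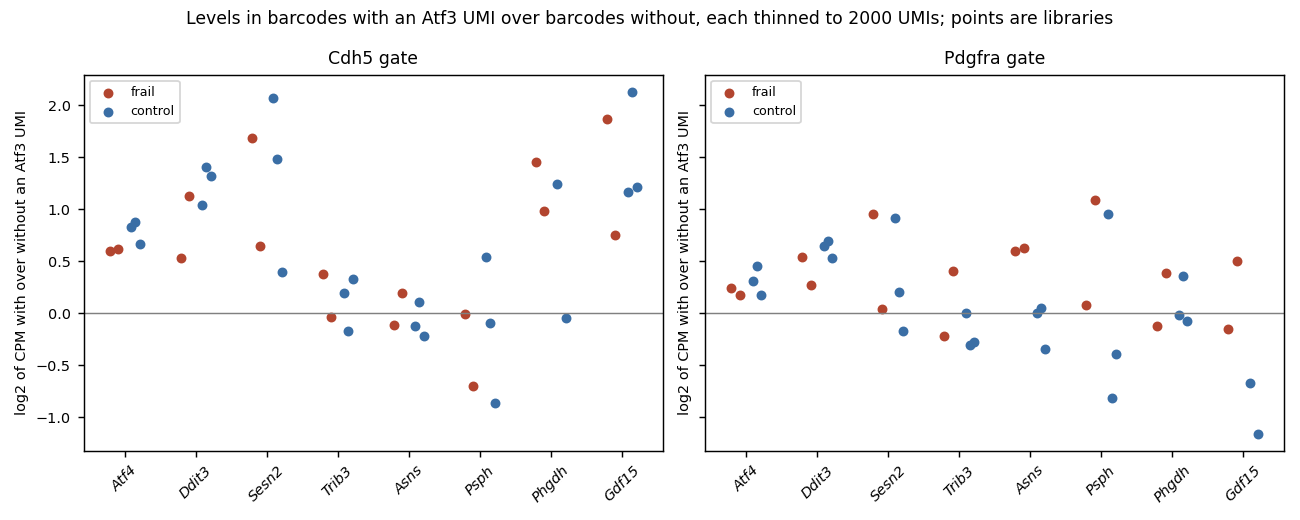
Log2 ratio of CPM in barcodes with an Atf3 UMI over barcodes without, after thinning each barcode to 2000 UMIs, for 7 members and Gdf15 in the Cdh5 gate (left) and the Pdgfra gate (right), with frail libraries in red left of control libraries in blue and ratios with a 0 left out. In the Cdh5 gate Atf4, Ddit3, Sesn2 and Gdf15 lie above 0 in all 5 libraries, and Trib3, Asns and Psph lie on both sides of it.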

How the data were processed

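Raw UMI counts per gene and barcode were deposited by the authors as 1 matrix per library. The file headers give Cell Ranger 7.0.0 as their source, and the submitters' processing notes name Seurat 4.1.2 and GRCm38. The matrices were filtered as given above (scanpy 1.11.5) and summed per library and gate. The main test on these sums was that of edgeR 4.0.16 (quasi-likelihood, TMM scaling, low-count filter, Benjamini-Hochberg adjustment at 0.05) in R 4.3.3. DESeq2 1.42.0 was an alternative, and the fits were tested on simulated data. The simulated log2 changes were 2 for frail differences and 1 for a gate difference, and smaller ones were not covered. CPM values are plain counts scaled by the sum's total. Doublets were kept, and an alternative removed Scrublet calls. Other alternatives changed the scaling, the filter, the gates, the mitochondrial limit, the block and the libraries used. Replicates are separate mice per the series text, and 2 frail libraries limit every frail comparison. The genes and lists were chosen with earlier results of these data known. All 10 members are described, with the 2 of smallest p in each gate, at most 4 called genes of a list or otherwise the 2 of smallest p, and Gdf15.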

Additional observations from a re-analysis of the deposited data

How the results depend on the processing

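Wherever it could be tested, none of the 10 genes was called between frail and control libraries under the alternatives run, over all retained barcodes or in a gate. For a frail difference that varies among gates, Atf3 was called with no low-count filter and no member was called otherwise. The count of all genes called moved. With DESeq2 it was 319 over all retained barcodes, 124 in the Cdh5 gate, 137 in the Pdgfra gate, 74 in the Rgs5 gate, 59 in the C1qa gate, 15 in the Pax7 gate and 32 for a frail difference that varies among gates. Without a low-count filter these counts were 15, 269, 130, 24, 167, 77 and 573 in the same order. The labels number the replicates but name no shared animal. Deviations of same-numbered libraries correlated at -0.01479 and 0.1653, beside 0.1218 for frail 1 with control 3. Deviations from the mean of 2 frail libraries mirror each other, so these values cannot decide whether libraries were paired. With the replicate block, in which control 3 has no partner, the counts were 366 over all barcodes, 84 in the Pdgfra, 64 in the Rgs5, 18 in the C1qa and 16 in the Pax7 gate, and the Slc7a11 difference over all barcodes was -0.2038. Without doublet calls the Pdgfra gate gave 2, the C1qa gate 1 and the variation among gates 1. The gate of at least 1 UMI gave 1 in the Pdgfra and 10 in the Pax7 gate, and the gate of at least 3 UMIs gave 1 for the variation among gates. Leaving out each library gave 0 to 15 genes in the Cdh5 gate (0 without frail 1 or control 3), 0 to 11 in the Pdgfra, 0 to 16 in the Rgs5, 0 to 20 in the C1qa and 4 to 46 in the Pax7 gate, and 1 to 25 for the variation among gates. Over all barcodes the leave-one-out log2 differences ran from -0.6082 to 0.1863 for Atf3, -0.02613 to 0.6643 for Trib3, -0.1932 to 0.4964 for Phgdh and -1.01 to 0.8847 for Slc7a11. In the Pax7 gate they ran from -0.00929 to 0.1626 for Atf4 and -0.151 to 0.04696 for Atf3, which was 0.009022 with no filter and 0.03264 with the 1-UMI gate. Phgdh in the C1qa gate against the 4 others was 0.02438 with the 1-UMI gate. In Ddit3-positive over Ddit3-negative Pdgfra-gated barcodes, thinning gave -0.007516 for Sesn2 and -0.1519 for Phgdh. The cause was not tested for any of these. Few UMIs limit Chac1 in the Pdgfra gate and most members in the Pax7 gate.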
